A study of Mus musculus with 6 samples.

Results

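The gene set described here joins 51 mouse genes that code for interferon receptors, sensors of foreign RNA, the transcription factors that read the interferon signal, and the proteins that interferon induces. The list was given by symbol, and each gene was matched to the probe sets that carry its symbol, current or older, and no other. Of the 51 genes, 50 had at least 1 such probe set and 47 could be tested, among 16923 genes tested in all. The 4 without a test were Isg15, which had no probe set of its own, and Ifit3, Oas1a and Ifitm1, which kept fewer than 3 probe sets each.

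The cells were OP9, a stromal line from mouse bone marrow that is grown under blood progenitors. A stable line carried a lentiviral pLKO.1-puro hairpin against Smoothened (Smo), the membrane protein that passes on the Hedgehog signal, and is called Smo shRNA, and a line with a scrambled hairpin in the same vector is called control shRNA. Total RNA of each line was prepared 3 times and hybridised to Affymetrix Mouse Exon 1.0 ST arrays, which gave 3 Smo shRNA and 3 control shRNA arrays. The labels name no treatment, so all values are those of cells kept in growth medium below confluency, with no interferon or virus named. The labels speak of triplicate RNA and not of separate transductions or clones, so each p-value covers the spread between RNA samples of 1 line, and an effect of the hairpin cannot be told apart from any other difference between the lines.

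Cells detect viral RNA with the helicases RIG-I and MDA5, which signal through the adaptor MAVS and switch on the genes of type I interferons. Secreted interferon binds the receptor chains IFNAR1 and IFNAR2, and a complex that holds STAT2 and IRF9 then enters the nucleus and binds the interferon-stimulated response element (ISRE) of many promoters. Products of these genes degrade or bind viral RNA, block entry and budding, and in turn adjust the pathway. Many of them are also transcribed at a basal level in stromal cells that have met no virus.

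Smo itself, the target of the hairpin, had gene values of 11.32, 11.36 and 11.44 in Smo shRNA cells, against 12.29, 12.22 and 12.24 in control shRNA cells. A gene value is the log2 hybridization intensity of the gene's probe sets joined per array. The groups did not overlap, and the log2 difference, here and below Smo shRNA minus control shRNA, was -0.88 (SE 0.04, limma adjusted p = 1.22e-09), or 1.83-fold lower. Over all tested genes, 38.6% passed the adjusted threshold of 0.05, with 17.4% lower and 21.2% higher in Smo shRNA cells, so a change is common in this comparison. Of the 8 stromal markers, whose mean lay between 11.26 and 11.35 in Smo shRNA arrays and between 11.59 and 11.63 in control shRNA arrays, 7 had levels of 10.50 or more, Thy1 read 7.33, and 6 of the 8 fell. Markers of leukocytes, plasmacytoid dendritic, endothelial and epithelial cells, of which 10 of 11 were tested with Bst2 left aside, had a mean of 7.78 to 7.91 in Smo shRNA arrays and of 7.77 to 7.84 in control shRNA arrays. Their single levels lay between 7.29 and 8.13, and 0 of the 10 passed in limma, with 0 at an unadjusted p under 0.05. In such bulk samples, fewer cells that express a gene and less RNA per cell cannot be told apart.

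Among the 47 tested interferon genes, 20 fell and 2 rose in Smo shRNA cells, and 25 did not pass. The lower share was 42.6%, beside 17.4% of all tested genes, and the higher share was 4.26%, beside 21.2%. The median log2 difference was -0.10 for the set and 0.01 for all genes. Of the 47 members, 9 were lower by 0.5 or more on the log2 scale, beside 4.34% of all genes. Of the same 47, 4 were lower by 1 or more, beside 1.18% of all genes, and these were Trim30d, Trim30a, Ifi204 and Ifi44. None of the 47 was higher by 2-fold. The 3 Smo shRNA arrays and the 3 control shRNA arrays did not overlap in 31 members, where 47.8% of all genes showed the same.

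The counts by role were as follows. Of 3 tested p200 family genes 3 fell, with a median difference of -0.90, and of 24 tested effectors 10 fell and 1 rose, with a median of -0.09. Of 6 RNA sensors 3 fell and 0 rose (median -0.09), of 4 transcription factors 1 fell and 0 rose (median -0.05), and of 8 regulators 2 fell and 1 rose (median -0.08). The receptors gave 1 lower gene of 2. These counts are small and the roles were not tested against each other. Leaving out any 1 array left 14 to 17 lower and 1 to 3 higher members, and 14 of the 20 lower genes passed in all 6 such fits. Those 14 were Ifnar2, Ddx58, the 3 p200 genes, both Trim30 genes, Samhd1, Ifi44, Bst2, Gbp2, Sp100, Ifit2 and Rtp4.

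**Figure D1:**
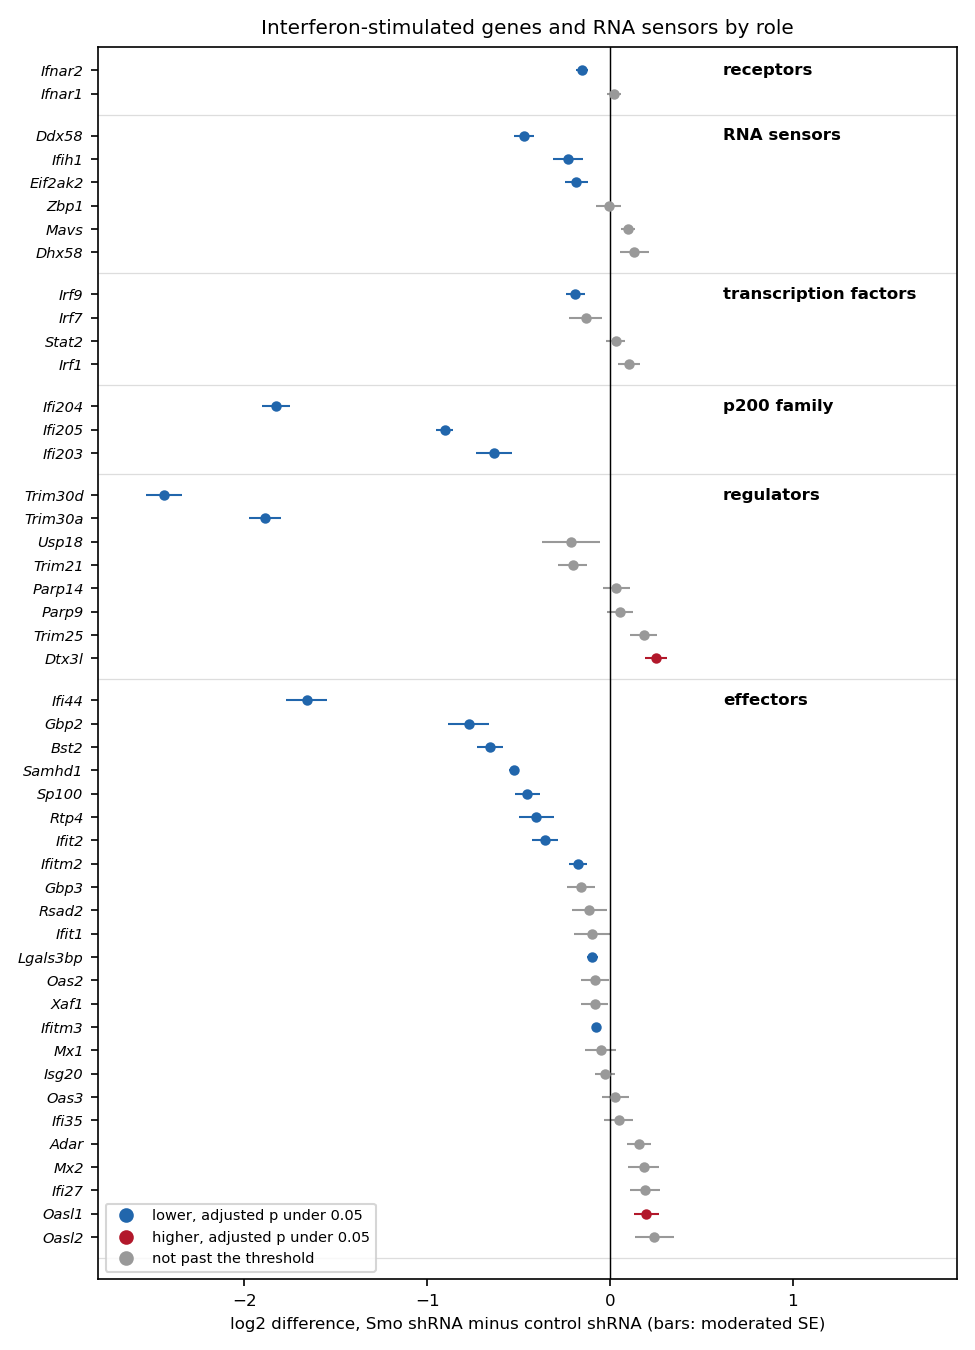
Log2 difference (Smo shRNA minus control shRNA, horizontal axis) of the 47 tested members, grouped by role and sorted within each role, with bars for the moderated standard error and colour for the limma call. The points of Trim30d, Trim30a, Ifi204 and Ifi44 lie beyond -1, and most sensors and transcription factors lie between -0.25 and 0.25.

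Of the receptor chains, Ifnar2 fell slightly and Ifnar1 did not pass. Ifnar2, the chain that binds interferon most tightly, had values of 12.10, 12.02 and 12.04 in Smo shRNA cells, against 12.21, 12.22 and 12.19 in control shRNA cells. The groups did not overlap, and the difference was -0.15 (SE 0.03, adjusted p = 0.00173), with 12 of 13 probe sets below 0 and 8 of them called lower. With the median of its probe sets in place of median polish the difference was -0.24. Ifnar1 read 11.27, 11.30 and 11.31 in Smo shRNA cells, against 11.29, 11.22 and 11.30 in control shRNA cells. Its groups overlapped and its difference was 0.02 (adjusted p = 0.728).

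Among the RNA sensors, Ddx58 fell clearly, Ifih1 and Eif2ak2 fell by little, and Dhx58, Mavs and Zbp1 did not pass. Ddx58, which encodes RIG-I, the helicase that detects the triphosphate end of viral RNA, had values of 10.18, 10.21 and 10.23 in Smo shRNA cells, against 10.65, 10.60 and 10.78 in control shRNA cells. Every Smo shRNA array was below every control shRNA array, and the difference was -0.47 (SE 0.05, adjusted p = 8.63e-06), or 1.38-fold lower. Of its 25 probe sets, 24 were below 0 and 20 were called lower on their own (12.4% of all kept probe sets were called lower). Without any 1 array the difference stayed between -0.50 and -0.41.

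Ifih1 encodes MDA5, which detects long double-stranded RNA, and was dim on these arrays. It read 7.15, 7.25 and 7.03 in Smo shRNA cells, against 7.36, 7.39 and 7.37 in control shRNA cells. The groups did not overlap and the difference was -0.23 (SE 0.08, adjusted p = 0.039), but 1 of its 11 probe sets was called. The call was kept without control shRNA replicate 2 (-0.21) and lost without any of the other 5 arrays, the difference being -0.11 without Smo shRNA replicate 3 and -0.15 without control shRNA replicate 1. The higher limit for dim probe sets gave -0.10 and the median of its probe sets gave 0.01. Eif2ak2, which encodes the kinase PKR that stops translation on binding double-stranded RNA, read 9.82, 9.85 and 9.996 in Smo shRNA cells, against 10.03, 10.02 and 10.16 in control shRNA cells. Its groups were separated by a narrow gap, its difference was -0.18 (SE 0.06, adjusted p = 0.0323), and the call was lost without any 1 of the 6 arrays (adjusted p 0.0574 to 0.259).

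The other sensors did not pass. Mavs, the mitochondrial adaptor that carries the signal of both helicases, read 11.84, 11.78 and 11.75 in Smo shRNA cells, against 11.69, 11.64 and 11.73 in control shRNA cells. Its arrays did not overlap, and its difference of 0.10 missed the threshold (SE 0.04, adjusted p = 0.056), which it passed where genes needed at least 5 probe sets (adjusted p = 0.0442). Dhx58, which encodes LGP2, a helicase that adjusts MDA5 and RIG-I signalling, was at 7.62, 7.61 and 7.81 in Smo shRNA cells, against 7.59, 7.49 and 7.57 in control shRNA cells (0.13, adjusted p = 0.229). Zbp1, a receptor for Z-form nucleic acid that can start cell death, was at 8.07, 8.04 and 7.98 in Smo shRNA cells, against 8.09, 7.96 and 8.05 in control shRNA cells (-0.01, adjusted p = 0.962). The sensor that fell most and the adaptor it signals through therefore had differences of opposite sign, and the second of these did not pass.

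The promoters of 3 of the 4 sensors that have one in the RefSeq table hold the ISRE core. The core was searched as GAAA followed by 2 bases of any kind and GAAA. These 3 are the sensors that fell, though the calls of Ifih1 and Eif2ak2 depended on the arrays used. Dhx58 and Zbp1 had no promoter listed, so Mavs alone stands for the sensors that did not pass. The stretches are shown 5′ to 3′ on the strand that reads GAAA first, with the match in capitals and 7 bases on each side, from RefSeq with build GRCm38.p6. They lie at chr4:40239807-40239830 (plus strand) for Ddx58, chr2:62646207-62646230 (minus strand) for Ifih1 and chr17:78882538-78882561 (minus strand) for Eif2ak2.
Ddx58: gccatagGAAATCGAAActgcctc
Ifih1: gagaatcGAAACAGAAAccgatct
Eif2ak2: ccgccggGAAAACGAAAcagaaga
All 3 matches lie just downstream of the annotated start site, within its first 50 bases, and each has a pair of variable letters of its own.

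Of the transcription factors, Irf9 passed and Irf1, Irf7 and Stat2 did not. Irf9, the DNA-binding part of the complex that reads the ISRE, read 10.14, 10.12 and 10.22 in Smo shRNA cells, against 10.30, 10.33 and 10.41 in control shRNA cells. The arrays of the lines were separate, with a difference of -0.19 (SE 0.05, adjusted p = 0.00983), or 1.14-fold lower, with 10 of 11 probe sets below 0 and 4 called. The call was lost without Smo shRNA replicate 1 (-0.14), Smo shRNA replicate 2 (-0.18), control shRNA replicate 2 (-0.15) or control shRNA replicate 3 (-0.11). Stat2, its partner in the complex, read 9.99, 9.97 and 10.01 in Smo shRNA cells, against 9.94, 9.91 and 10.02 in control shRNA cells, with overlapping groups and a difference of 0.03 (adjusted p = 0.705).

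Irf1, a factor induced by interferon gamma, read 9.46, 9.44 and 9.41 in Smo shRNA cells, against 9.40, 9.23 and 9.37 in control shRNA cells (0.10, adjusted p = 0.222). Irf7, the factor that amplifies interferon production, read 7.29, 7.28 and 7.43 in Smo shRNA cells, against 7.30, 7.60 and 7.49 in control shRNA cells (-0.13, adjusted p = 0.299). Irf7 overlapped between the groups and was called lower without control shRNA replicate 1 (-0.26, adjusted p = 0.0393). Joining its probe sets by their mean also gave a lower call (-0.22, adjusted p = 0.0424).

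All 3 members of the p200 family fell, and Ifi204 had the third largest decrease of the set. These genes belong to a cluster on chromosome 1, with other genes of the family between them, and code for interferon-inducible proteins with a pyrin domain or a DNA-binding HIN domain. Ifi204, whose product p204 binds DNA and has been tied to DNA sensing in mouse macrophages, read 9.17, 9.38 and 9.54 in Smo shRNA cells, against 11.20, 11.12 and 11.26 in control shRNA cells. The gap between the groups was several times the spread inside either, and the difference was -1.83 (SE 0.08, adjusted p = 9.06e-10), or 3.55-fold lower. All 7 of its probe sets were called lower, with differences from -2.49 to -0.21.

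Ifi205 read 10.66, 10.64 and 10.77 in Smo shRNA cells, against 11.56, 11.57 and 11.65 in control shRNA cells. The groups were far apart again, and the difference was -0.90 (SE 0.05, adjusted p = 5.5e-09), or 1.87-fold lower, with 4 of 5 probe sets called. Ifi203 was dimmer, at 7.66, 7.83 and 8.05 in Smo shRNA cells, against 8.44, 8.37 and 8.62 in control shRNA cells (-0.63, SE 0.10, adjusted p = 0.000151). Its 20 probe sets were spread widely, from -1.97 to 0.15, with 12 called lower. Ifi207, a gene of the same cluster that is no member and was named after its values were seen, read 7.74, 8.02 and 7.996 in Smo shRNA cells, against 8.50, 8.48 and 8.53 in control shRNA cells (-0.59, adjusted p = 4.88e-05). The genes of this cluster are close relatives, and a further 12 probe sets of Ifi204, 2 of Ifi205 and 1 of Ifi203 carry several gene symbols and were left out. Signal of a relative in the probe sets that were kept was not tested.

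The promoter of Ifi205 is shown because Ifi205 is among the called members with an ISRE match that fell most. It holds 2 such matches. Ifi204, which fell more, had no promoter listed. The window runs from 250 bases before to 50 bases after the annotated start at chr1:174031706-174032005 on the minus strand (RefSeq, GRCm38.p6), with the 2 matches in capitals, the first as GAAA, 2 bases and GAAA and the second as the reverse complement.
Ifi205: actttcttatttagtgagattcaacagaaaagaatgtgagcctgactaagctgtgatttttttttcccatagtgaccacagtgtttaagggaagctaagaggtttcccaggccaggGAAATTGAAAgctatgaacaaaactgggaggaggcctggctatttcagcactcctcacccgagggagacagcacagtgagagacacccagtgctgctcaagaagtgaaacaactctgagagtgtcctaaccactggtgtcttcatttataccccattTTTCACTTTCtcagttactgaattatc
The first match starts 134 bases before the start site. Ifi203 has a match whose next bases read as in Ifi205, at chr1:173942511-173942534 on the minus strand, and differs from it in the variable letters and before the match.
Ifi205 match: ggccaggGAAATTGAAAgctatga
Ifi203 match: agctgggGAAATCGAAAgctatga

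The regulators held the 2 largest decreases of the set. Trim30d and Trim30a are neighbouring genes on chromosome 7 that code for ligase-like TRIM proteins, and Trim30a is known in mouse macrophages as a brake on Toll-like receptor signalling. Trim30d read 7.30, 7.30 and 7.70 in Smo shRNA cells, against 9.92, 9.76 and 9.94 in control shRNA cells. Trim30a read 9.22, 9.29 and 9.56 in Smo shRNA cells, against 11.25, 11.09 and 11.38 in control shRNA cells. For both genes all Smo shRNA arrays lay far below all control shRNA arrays. The differences were -2.44 (SE 0.10, adjusted p = 7.18e-10) for Trim30d, 5.42-fold lower, and -1.89 (SE 0.09, adjusted p = 1.8e-09) for Trim30a, 3.70-fold lower. In Smo shRNA cells Trim30d had a mean of 7.43, within the 7.29 to 8.13 of the non-stromal markers, so the size of its decrease is less sure.

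All 8 probe sets of Trim30d (-3.05 to -1.54) and all 11 of Trim30a (-2.41 to -0.96) were called lower. Leaving out 1 array gave -2.62 to -2.42 for Trim30d and -1.92 to -1.78 for Trim30a. Trim30b, the other gene of this cluster with enough probe sets, was named after its values were seen and did not pass, at 7.65, 7.61 and 7.38 in Smo shRNA cells, against 7.55, 7.76 and 7.39 in control shRNA cells (-0.02, adjusted p = 0.914). Trim30b was dim, at a mean level of 7.55, and kept 4 of its 15 probe sets. Their differences ran from -1.05 to 0.38, with 1 called lower, so whether Trim30b was unchanged cannot be told. Trim30a and Trim30d are close paralogs, and how far their probe sets share signal was not tested.

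The promoters of the pair are shown because they hold an ISRE match and belong to the genes with the largest decreases, and they are partly the same. They lie at chr7:104507800-104508099 for Trim30d and chr7:104465144-104465443 for Trim30a, both on the minus strand (RefSeq, GRCm38.p6), and the capitals mark the ISRE match, which reads as the reverse complement.
Trim30d: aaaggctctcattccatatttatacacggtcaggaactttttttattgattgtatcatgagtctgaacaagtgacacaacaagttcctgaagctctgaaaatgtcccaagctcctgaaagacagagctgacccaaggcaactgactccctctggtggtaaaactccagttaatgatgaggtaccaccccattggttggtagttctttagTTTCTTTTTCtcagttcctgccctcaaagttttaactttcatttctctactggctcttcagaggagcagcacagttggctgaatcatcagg
Trim30a: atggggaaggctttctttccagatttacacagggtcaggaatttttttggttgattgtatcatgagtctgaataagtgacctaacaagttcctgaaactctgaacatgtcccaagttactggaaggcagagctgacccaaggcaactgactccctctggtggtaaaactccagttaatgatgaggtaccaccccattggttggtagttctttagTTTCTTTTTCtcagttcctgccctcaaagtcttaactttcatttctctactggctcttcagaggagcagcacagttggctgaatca
The match starts 41 bases before the start site in Trim30d and 36 bases before it in Trim30a. The 2 windows share an identical run of 118 bases that includes the match.

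Dtx3l, a ubiquitin ligase that works in a complex with Parp9, rose. It read 9.54, 9.54 and 9.64 in Smo shRNA cells, against 9.35, 9.24 and 9.38 in control shRNA cells. Smo shRNA and control shRNA arrays were separate, and the difference was 0.25 (SE 0.06, adjusted p = 0.00405), or 1.19-fold higher, with 7 of 8 probe sets above 0 and 3 called higher (17.5% of all kept probe sets were called higher). It was called higher in all 6 fits without 1 array, at 0.18 to 0.27. Its partner Parp9 (0.06, adjusted p = 0.604) and its relative Parp14 (0.03, adjusted p = 0.783) did not pass. The promoter of Dtx3l, at chr16:35938978-35939277 on the minus strand, is shown as that of the member with the largest increase, and it holds no match of the ISRE core, so no base is in capitals.
Dtx3l: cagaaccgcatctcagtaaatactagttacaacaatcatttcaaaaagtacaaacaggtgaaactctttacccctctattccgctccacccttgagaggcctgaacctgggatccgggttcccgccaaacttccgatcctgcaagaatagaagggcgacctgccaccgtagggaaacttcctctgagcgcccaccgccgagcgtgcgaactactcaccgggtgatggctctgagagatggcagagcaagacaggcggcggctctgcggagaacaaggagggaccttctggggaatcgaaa

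The remaining regulators did not pass. Trim21, a cytosolic antibody receptor, read 8.60, 8.45 and 8.62 in Smo shRNA cells, against 8.68, 8.70 and 8.91 in control shRNA cells (-0.20, adjusted p = 0.0533), with no overlap. It was called lower in 7 of the 9 alternatives that kept all arrays (adjusted p 0.0226 to 0.0426 in the 7), at -0.23 to -0.20. Trim25, the ligase that activates RIG-I, read 8.58, 8.71 and 8.82 in Smo shRNA cells, against 8.53, 8.45 and 8.58 in control shRNA cells (0.19, adjusted p = 0.064), and was called higher without Smo shRNA replicate 1 (0.23, adjusted p = 0.0412), with the mean of its probe sets (adjusted p = 0.0419), with at least 5 probe sets per gene (0.0482) and with the replicate block (0.0346). Usp18, which removes ISG15 from proteins and dampens signalling at Ifnar2, was the most variable member, at 7.94, 7.71 and 7.80 in Smo shRNA cells, against 7.58, 8.07 and 8.44 in control shRNA cells. Its SD was 0.12 in Smo shRNA cells and 0.43 in control shRNA cells (n = 3 each), and the groups overlapped (-0.21, adjusted p = 0.354). Without control shRNA replicate 1 it was called lower (-0.47, adjusted p = 0.0495).

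**Figure D2:**
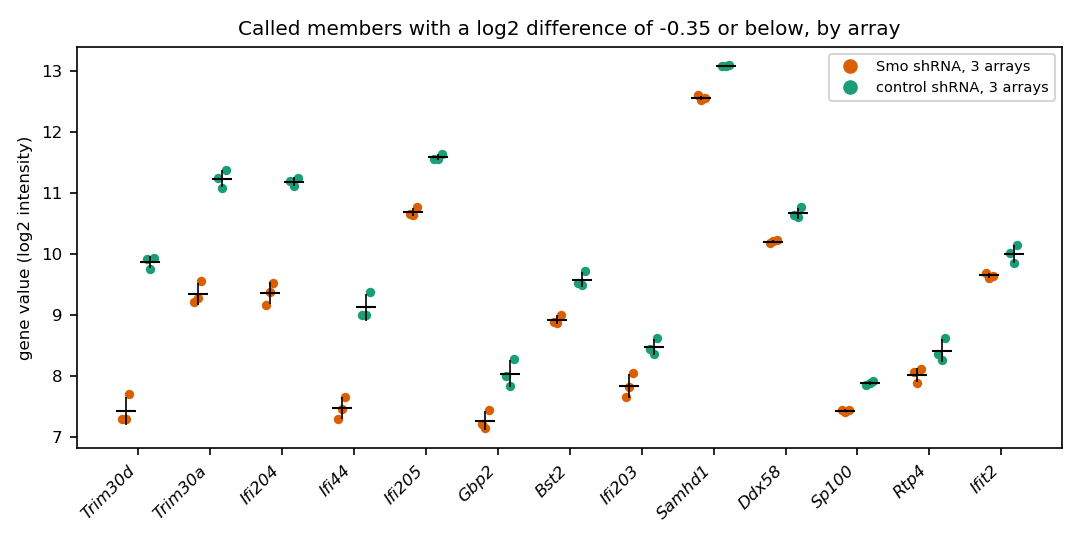
Gene values (log2 intensity, vertical axis) of the 13 called members with a difference of -0.35 or below, for 3 Smo shRNA arrays (left of each pair) and 3 control shRNA arrays (right), with bars for the mean and SD. In each of the 13 genes the Smo shRNA arrays lie below all control shRNA arrays, with the widest gap for Trim30d. The genes shown were chosen by their call and difference, so this separation largely follows from that choice.

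Among the effectors, Ifi44, Gbp2, Bst2, Samhd1, Sp100, Rtp4 and Ifit2 fell in every fit that left out 1 array. Ifi44, a strongly interferon-induced gene, read 7.30, 7.47 and 7.66 in Smo shRNA cells, against 9.01, 9.01 and 9.39 in control shRNA cells. The groups were well apart, the difference was -1.66 (SE 0.11, adjusted p = 6.08e-08), or 3.16-fold lower, and all 12 probe sets were called. Its promoter window holds no ISRE match. In Smo shRNA cells Ifi44 had a mean of 7.47, also within the 7.29 to 8.13 of the non-stromal markers, so the size of its decrease is less sure.

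Gbp2, a guanylate-binding GTPase that attacks the vacuoles of microbes, read 7.21, 7.16 and 7.45 in Smo shRNA cells, against 8.005, 7.85 and 8.28 in control shRNA cells. The groups did not overlap, and the difference was -0.77 (SE 0.11, adjusted p = 6.91e-05), or 1.71-fold lower, with 6 of 9 probe sets called. Its measured neighbours in the Gbp cluster of chromosome 3 did not pass, with differences of -0.16 for the member Gbp3, 0.03 for Gbp2b and -0.07 for Gbp5. Of these, Gbp2b was named after its values were seen. These neighbours were dim, at mean levels of 7.46 for Gbp3, 7.44 for Gbp2b and 6.91 for Gbp5, where a difference is hard to measure. Gbp2 was itself dim, at a mean level of 7.66 and a mean of 7.27 in Smo shRNA cells, so the size of its decrease is less sure. The Gbp3 result depended on the summary, since Gbp3 was called lower with the mean of its probe sets (-0.22, adjusted p = 0.0462) and with their median (-0.43, adjusted p = 0.0159). The promoter of Gbp2 is the fourth shown for an ISRE match in a gene that fell, at chr3:142620413-142620712 on the plus strand, with the match in capitals as the reverse complement, starting 59 bases before the start site.
Gbp2: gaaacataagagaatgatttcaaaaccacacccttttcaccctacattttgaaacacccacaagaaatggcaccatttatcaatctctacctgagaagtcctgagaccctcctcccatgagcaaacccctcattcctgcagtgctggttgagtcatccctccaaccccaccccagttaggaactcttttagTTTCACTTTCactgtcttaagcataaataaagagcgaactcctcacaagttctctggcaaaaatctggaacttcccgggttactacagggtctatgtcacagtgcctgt

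Bst2 encodes tetherin, which holds budding virions at the cell surface and also serves as a marker of plasmacytoid dendritic cells. It read 8.90, 8.88 and 9.01 in Smo shRNA cells, against 9.52, 9.50 and 9.73 in control shRNA cells. No array of one line fell within the range of the other, and the difference was -0.66 (SE 0.07, adjusted p = 6.05e-06), or 1.57-fold lower, with all 4 probe sets called. Siglech, the other marker of those dendritic cells, had a mean of 7.50 in Smo shRNA cells and 7.39 in control shRNA cells, with a difference of 0.11 that did not pass (adjusted p = 0.317).

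Samhd1, which removes the deoxynucleotides that retroviruses need, was among the brightest members, at 12.61, 12.53 and 12.56 in Smo shRNA cells, against 13.08, 13.09 and 13.10 in control shRNA cells. The 2 groups were tight and separate (-0.53, SE 0.03, adjusted p = 4.16e-09, 1.44-fold lower), and 23 of 25 probe sets were called. Sp100, a protein of nuclear bodies that silences viral genomes, read 7.45, 7.41 and 7.45 in Smo shRNA cells, against 7.85, 7.88 and 7.93 in control shRNA cells (-0.45, SE 0.07, adjusted p = 0.000146). Its values were also tight in both groups, though 4 of 12 probe sets were called. Sp110 (0.04, adjusted p = 0.858) and Sp140 (0.23, adjusted p = 0.0906), its neighbours on chromosome 1, did not pass, and Sp140 was named after its values were seen.

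Ifit2, which binds viral RNA and limits its translation, read 9.70, 9.62 and 9.65 in Smo shRNA cells, against 10.03, 9.86 and 10.15 in control shRNA cells (-0.36, SE 0.07, adjusted p = 0.000921). All 6 probe sets were below 0 and 4 were called. Rtp4, a transporter-family protein induced by interferon, read 8.06, 7.88 and 8.11 in Smo shRNA cells, against 8.36, 8.27 and 8.63 in control shRNA cells (-0.40, SE 0.10, adjusted p = 0.00383). Both genes were separate between the groups, but of Rtp4's 6 probe sets, all below 0, none was called on its own.

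Ifitm2, Ifitm3 and Lgals3bp passed with small differences at high levels. Ifitm2, one of the membrane proteins that stop viral fusion, read 12.74, 12.96 and 12.92 in Smo shRNA cells, against 13.07, 13.10 and 12.97 in control shRNA cells (-0.17, adjusted p = 0.0124). Its relative Ifitm3 read 13.40, 13.43 and 13.40 in Smo shRNA cells, against 13.53, 13.47 and 13.45 in control shRNA cells (-0.07, adjusted p = 0.0205). Lgals3bp, a secreted glycoprotein that binds galectin-3, read 13.23, 13.17 and 13.28 in Smo shRNA cells, against 13.37, 13.28 and 13.31 in control shRNA cells, so that 1 pair of arrays came within 0.01 of each other (-0.10, adjusted p = 0.0214). The 3 calls depended on the arrays used. Those of Ifitm2 (-0.23) and Ifitm3 (-0.09) were kept without Smo shRNA replicate 2 and lost without any of the other 5 arrays, and that of Lgals3bp was kept without Smo shRNA replicate 3 (-0.13) and lost without any of the other 5. In these fits Ifitm2 ran from -0.23 to -0.09, Ifitm3 from -0.09 to -0.04 and Lgals3bp from -0.13 to -0.07.

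Oasl1 was the 1 effector that rose. It codes for a relative of the oligoadenylate synthetases that in mouse represses the translation of Irf7. It read 8.81, 8.80 and 8.73 in Smo shRNA cells, against 8.59, 8.68 and 8.47 in control shRNA cells. The groups did not overlap, and the difference was 0.20 (SE 0.07, adjusted p = 0.0345), or 1.15-fold higher, with 1 of 7 probe sets called higher. The call was kept without control shRNA replicate 2 (0.25, adjusted p = 0.0149) and lost without any of the other 5 arrays, the smallest value being 0.13 without control shRNA replicate 3.

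The other 13 tested effectors did not pass, with differences from -0.16 to 0.24. Ifit1, which binds viral RNA without a mature cap, read 9.41, 9.61 and 9.70 in Smo shRNA cells, against 9.60, 9.49 and 9.92 in control shRNA cells (-0.10, adjusted p = 0.524). Isg20, an exonuclease, read 10.24, 10.14 and 10.25 in Smo shRNA cells, against 10.26, 10.16 and 10.29 in control shRNA cells (-0.02). Both overlapped between the groups although both were bright enough to be well above the array median. The GTPases Mx1 (-0.05) and Mx2 (0.19), the synthetases Oas2 (-0.08) and Oas3 (0.03), viperin (Rsad2, -0.11), Oasl2 (0.24), the RNA-editing enzyme Adar (0.16), Ifi35 (0.05) and Xaf1 (-0.08), named after their values were seen, had adjusted p-values of 0.0776 or more. Oasl2 was called higher with the replicate block (adjusted p = 0.0213). Of these, Mx1 at 6.97, Oas2 at 7.14 and Rsad2 at 7.18 on average in Smo shRNA cells, and at 7.02, 7.22 and 7.29 in control shRNA cells, lay close to the array median of about 6.56, where a difference is hard to measure. Among all tested genes with a mean level under 8, 9.34% were called in either direction. Of the 14 members below that level 3 were called, all lower.

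**Figure D3:**
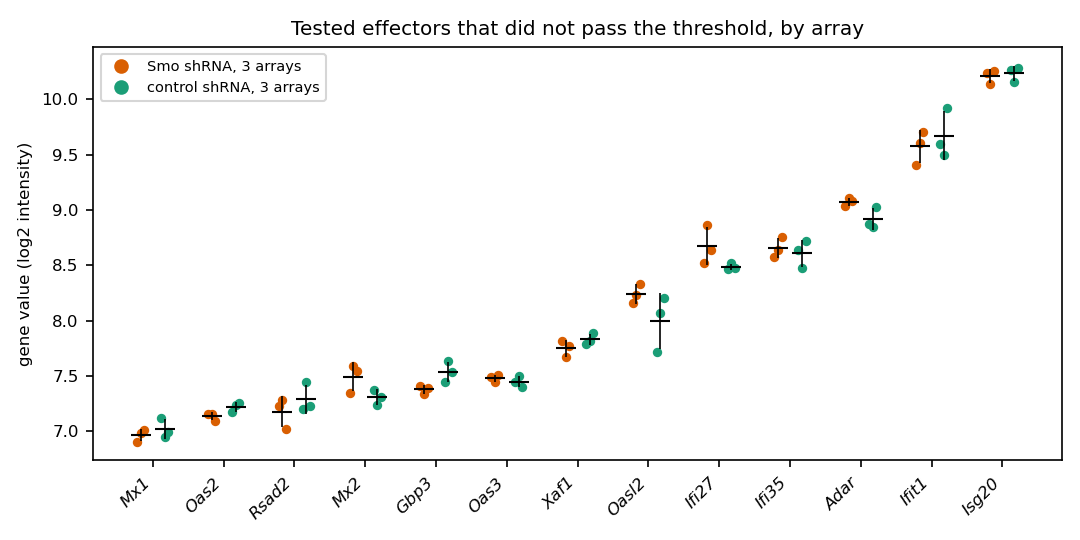
Gene values (log2 intensity, vertical axis) of the 13 tested effectors that did not pass, in order of mean level, for 3 Smo shRNA arrays (left of each pair) and 3 control shRNA arrays (right), with bars for the mean and SD. The genes shown were chosen by their call, so their small differences follow from that choice, and the groups overlap in 9 of the 13, the exceptions being Oas2, Gbp3, Ifi27 and Adar.

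Ifi27 needs care with its name. The array's symbol Ifi27 is current but has also been used for Ifi27l2a, and the gene that the RefSeq table calls Ifi27 is also on the array under an older symbol, D12Ertd647e. The values under Ifi27 were 8.52, 8.86 and 8.64 in Smo shRNA cells, against 8.46, 8.52 and 8.47 in control shRNA cells (0.19, adjusted p = 0.0894), with no overlap by a narrow margin. They were called higher without control shRNA replicate 2 (0.44, adjusted p = 0.027), with the mean of probe sets (0.40, adjusted p = 0.000244), with their median (0.34, adjusted p = 0.0429), with all probe sets kept (0.27, adjusted p = 0.0118) and with the replicate block (adjusted p = 0.0415). Without Smo shRNA replicate 2 the difference was 0.04. The values under D12Ertd647e were 11.01, 10.95 and 10.95 in Smo shRNA cells, against 11.15, 11.04 and 11.15 in control shRNA cells (-0.14, adjusted p = 0.0224), a call kept in 2 of the 6 fits without 1 array. The 2 readings point in opposite directions, and both calls moved with the settings.

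The members without a test can be described in part. Ifit3, a partner of Ifit1, kept 2 of its 3 probe sets. The brightest of them read 9.67, 9.55 and 9.60 in Smo shRNA cells, against 10.60, 10.49 and 11.03 in control shRNA cells, with a wide gap between the groups. In the fit that kept all probe sets, where 14.4% of all genes were lower, Ifit3 averaged 7.68 in Smo shRNA cells and 8.68 in control shRNA cells (-0.998, SE 0.07, adjusted p = 3.2e-06 in that fit), and passed. Ifitm1 (0.19, adjusted p = 0.121) and Oas1a (-0.23, adjusted p = 0.198) did not pass in that fit. Isg15 itself, the ubiquitin-like modifier, had no probe set under its own symbol alone and was not analysed here.

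**Figure D4:**
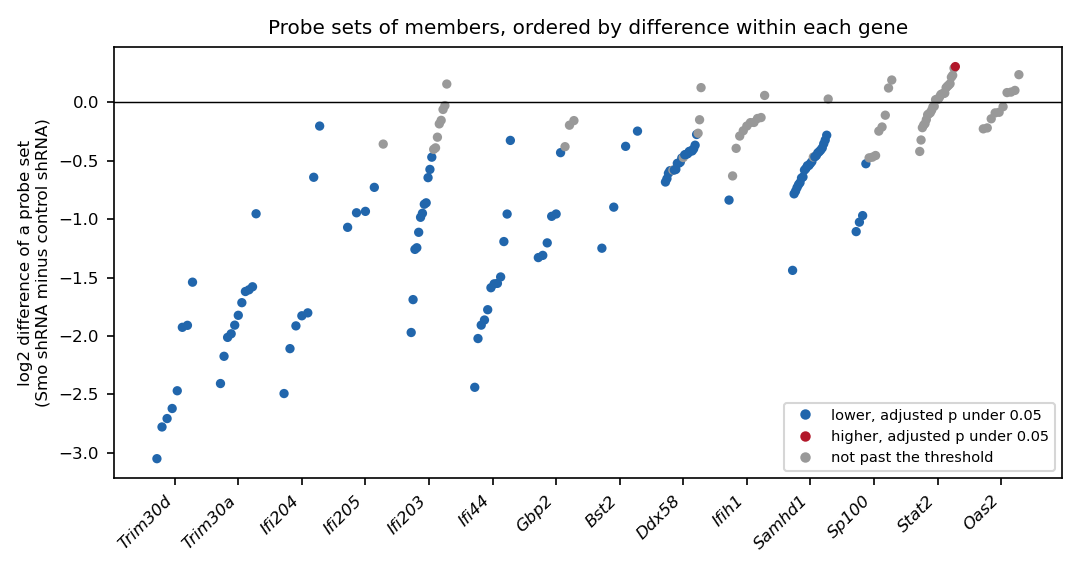
Log2 difference (Smo shRNA minus control shRNA, vertical axis) of each kept probe set of 14 members, sorted within each gene and coloured by its own limma call. Every probe set of Trim30d, Trim30a, Ifi204, Ifi44 and Bst2 is called lower, while those of Stat2 and Oas2 lie on both sides of 0.

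At the level of probe sets, 212 of the 223 kept probe sets of the 20 lower members were below 0. These members were chosen by a call made from the same probe sets, so this count largely follows from that choice. Probe sets of 1 gene share its RNA and are not replicates. A point on single arrays also touches the set. Control shRNA replicate 3 read highest of the 3 control shRNA arrays in 31 of 47 members (66.0%), beside 38.5% of all genes, and Smo shRNA replicate 3 read highest of the 3 Smo shRNA arrays in 29 of 47 (61.7%), beside 38.5% of all genes. Both arrays were high for all 3 p200 genes, and the control array was also highest for all 8 tested regulators. The part of this pattern in the differences was not tested. Trim30d lay between -2.62 and -2.42 without any 1 array, but other members changed more. Without control shRNA replicate 3, Bst2 went from -0.66 to -0.44, Gbp2 from -0.77 to -0.56, Ifit2 from -0.36 to -0.25 and Rtp4 from -0.40 to -0.29. These calls were kept in that fit, and that of Irf9 was lost (-0.11). Ifnar2 (-0.15 to -0.16), Ifitm2 (-0.17 to -0.19) and Lgals3bp (-0.096 to -0.106) instead moved slightly away from 0.

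Across all members, a promoter was listed for 40, and 20 of these (50%) held the ISRE core on either strand, beside 3.99% of the 27025 genes with a promoter in the table. The share was 61.1% in the members that fell (11 of 18), 37.5% in those that did not pass (6 of 16) and 0 of 2 in those that rose. Of the roles, 2 of 2 p200 genes, 4 of 6 regulators, 3 of 4 sensors, 10 of 22 effectors, 1 of 4 transcription factors and 0 of 2 receptors had a match. The STAT site TTCNNNGAA, also searched on both strands, was found in 12 of 40 (30%), beside 9.55% of all genes, with 6 of 18 in members that fell and 5 of 16 in those that did not pass. Both receptors held the STAT site.

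Of the 17 tested members with a match 11 fell, and of the 19 tested members with a promoter and no match 7 fell, a difference that was not tested. Among the 11, the calls of Ifih1, Eif2ak2, Ifitm2 and Ifitm3 were not kept in all 6 fits without 1 array. The same held for Irf9 and Lgals3bp among the 7. The 11 also include relatives, such as Trim30a and Trim30d with their partly identical windows, which are not separate cases. With only the first match in each promoter taken, exact copies of the 10 letters were shared by 2 or more tested members in 7 cases. All members fell in 3 of these, the calls differed in 3, and none passed in 1. Besides the stretches of Trim30a, Trim30d, Ddx58 and Ifi203 shown above, those of the other cases are given, 5′ to 3′ with the ISRE match in capitals, to let the pairs be compared.
Ifitm2, fell: ccaacagGAAAAGGAAAttgctag
Ifitm3, fell: aattcagGAAAAGGAAActtctga
Gbp2, fell: agacagtGAAAGTGAAActaaaag
Ifit1, did not pass: gagactgGAAAGTGAAActgaagc
Bst2, fell: attccagGAAAATGAAActgaaag
Rsad2, did not pass: gttttctGAAAATGAAAgttggac
Eif2ak2, fell: ccgccggGAAAACGAAAcagaaga
Oas3, did not pass: gggaggaGAAAACGAAAgtgaagg
Stat2, did not pass: gggaaagGAAACTGAAAccagggt
Trim21, did not pass: ctgagagGAAACTGAAAgtgaaat
Gbp3, did not pass: ggaaataGAAACTGAAActgtgtc
They lie in GRCm38.p6 at chr3:142620597-142620620 (minus) for Gbp2, chr19:34640778-34640801 (minus) for Ifit1, chr8:71537586-71537609 (minus) for Bst2, chr12:26456556-26456579 (plus) for Rsad2 and chr5:120777718-120777741 (minus) for Oas3. Those of Stat2 and Trim21 lie at chr10:128270269-128270292 (minus) and chr7:102565453-102565476 (minus), that of Gbp3 at chr3:142559992-142560015 (minus), and those of Ifitm2 and Ifitm3 at chr7:140955991-140956014 (minus) and chr7:141010726-141010749 (minus). The members fell in the pairs Trim30a and Trim30d (GAAAAAGAAA), Ddx58 and Ifi203 (GAAATCGAAA), and Ifitm2 and Ifitm3 (GAAAAGGAAA). The calls differed between Gbp2 and Ifit1 (GAAAGTGAAA), Bst2 and Rsad2 (GAAAATGAAA), and Eif2ak2 and Oas3 (GAAAACGAAA). By this first match, none of Stat2, Trim21 and Gbp3 (GAAACTGAAA) passed. Later matches in the same promoter were left out, so these cases are not complete. Bst2, which fell, also holds GAAACTGAAA. GAAAGTGAAA is also held by Ifi205, which fell, and by Trim21, which did not pass. A match is a run of letters and says nothing of binding in these cells.

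Other genes of interferon production, signalling and response, 56 on the list and 47 tested, moved in both directions. Of these, 17 fell (36.2%) and 6 rose (12.8%), beside 17.4% and 21.2% of all genes, with a median difference of -0.08. Tlr3, the endosomal receptor for double-stranded RNA, fell most, at 8.37, 8.23 and 8.57 in Smo shRNA cells, against 9.70, 9.47 and 9.68 in control shRNA cells. Its groups lay far apart (-1.22, SE 0.09, adjusted p = 1.31e-07, 2.34-fold lower), and all 15 probe sets were called.

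Irgm1, an interferon-inducible GTPase, read 10.14, 10.20 and 10.13 in Smo shRNA cells, against 11.03, 10.80 and 10.93 in control shRNA cells (-0.76, adjusted p = 2.04e-07). Ifngr1, the receptor chain for interferon gamma, read 11.96, 12.02 and 12.03 in Smo shRNA cells, against 12.39, 12.41 and 12.41 in control shRNA cells (-0.40, adjusted p = 2.34e-07). Tap1, which moves peptides toward MHC class I, read 9.27, 9.28 and 9.32 in Smo shRNA cells, against 9.85, 9.72 and 9.84 in control shRNA cells (-0.51, adjusted p = 8.53e-06). In each of the 3 the groups were separate. The kinase genes Jak1 (-0.13), Tbk1 (-0.21) and Ikbke (-0.48), the factor Irf5 (-0.29) and the adaptor Sting1 (-0.25), named after their values were seen, also fell, the call of Tbk1 being kept in 2 of the 6 fits without 1 array. The kinase gene Tyk2 (0.10) and the factors Irf2 (0.07), Irf3 (-0.08) and Irf8 (-0.09), named in the same way, did not pass.

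Cgas, the enzyme that senses DNA in the cytosol and signals through Sting1, instead rose. It read 8.95, 9.04 and 8.96 in Smo shRNA cells, against 8.07, 7.92 and 8.17 in control shRNA cells, with no overlap (0.93, SE 0.07, adjusted p = 3.02e-07, 1.91-fold higher). Ifi30, a lysosomal thiol reductase of antigen processing, read 11.42, 11.40 and 11.29 in Smo shRNA cells, against 10.71, 10.51 and 10.63 in control shRNA cells (0.75, adjusted p = 1.35e-07). The 2 genes had the largest increases of this list. Herc6, the ligase that attaches ISG15 in mouse, rose by 0.66 (adjusted p = 1.03e-05), and Traf3, an adaptor between MAVS and the kinases that activate interferon factors, rose by 0.55 (adjusted p = 4.33e-06), each with no overlap between the groups. These 4 calls, and those of Tlr3, Irgm1, Ifngr1 and Tap1, were kept in all 6 fits without 1 array.

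**Figure D5:**
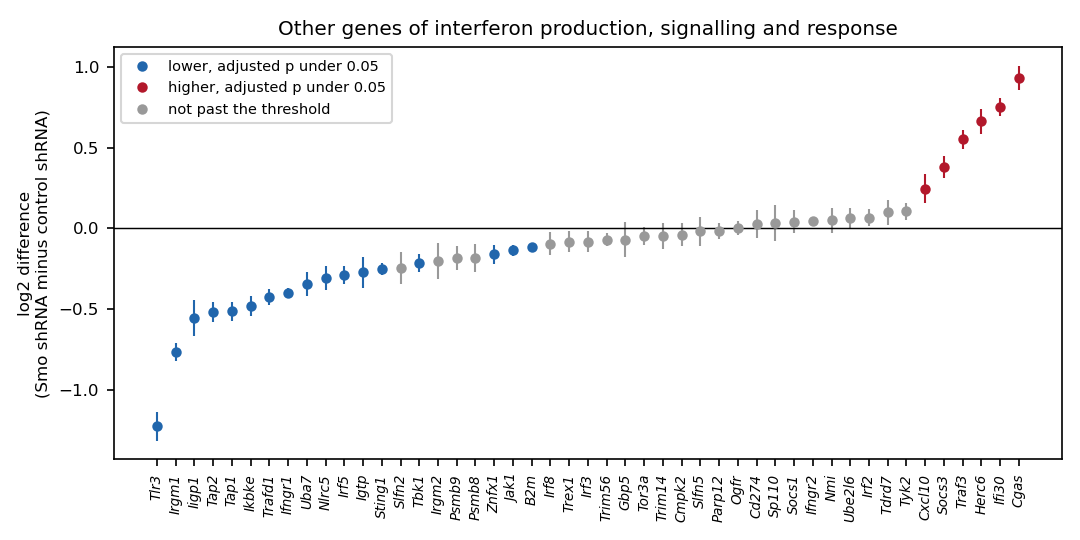
Log2 difference (Smo shRNA minus control shRNA, vertical axis) of the 47 tested genes of interferon production, signalling and response that are not members, sorted by difference, with bars for the moderated standard error and colour for the limma call. Tlr3 is lowest at -1.22 and Cgas highest at 0.93.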

How the data were processed

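RNA of 2 stable OP9 lines was measured on 6 exon arrays, 3 for Smo shRNA and 3 for control shRNA. The deposited table holds log2 values per probe set that the authors made. The scale was read from the values, which run from 0 to 15.14, and the array medians of 6.56 to 6.59 show that they were already on a common level. How the authors corrected background and summarised probes was not stated per the labels.

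Symbols came from the platform annotation: 318760 of 1256831 probe sets had 1 symbol, 6684 had several and were left out, and 931387 had none. Of 22296 symbols, 18006 were current in the RefSeq table (GRCm38.p6), 3993 were updated through a synonym and 297 kept the older form. Probe sets with a mean of at least 6.56, the median of all, were kept (245574), and 3 or more per gene were joined with a median polish (Tukey), which left 16923 genes (median 11 probe sets each). Arrays of 1 line correlated at 0.996 to 0.998 and arrays of different lines at 0.979 to 0.981, across genes, which are not independent replicates. Smo shRNA was set against control shRNA in limma 3.58.1 (R 4.3.3, lmFit, eBayes with a variance trend, two-sided, Benjamini-Hochberg over all 16923 genes, threshold 0.05). SE is the moderated standard error. Hybridization compresses differences of dim genes, and the number of arrays limits the precision. The same fit was run on single probe sets. The calculation was tested on simulated data.

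The members, roles and lists were chosen with earlier results of these data known. The text names Smo, every tested receptor, sensor, transcription factor and p200 gene, every member that rose, up to 12 effectors and regulators that fell with the smallest adjusted p, up to 6 of the brightest that did not pass, and up to 4 related genes in each direction. Other names are given as chosen after their values were seen. Trim21, Trim25, Usp18, Parp9, Parp14 and the less bright effectors are such names, given so that each member is accounted for. Promoters (250 bases before to 50 after the start) came from RefSeq and were searched on both strands, and a gene counts once if any window matches. The alternatives changed the filter on dim probe sets, the summary, the minimum of probe sets, the normalization, the variance trend, the replicate block and the arrays included.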

Additional observations from a re-analysis of the deposited data

How the results depend on the processing

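Under 9 alternatives that kept all arrays, 16 to 21 members were lower. The number of higher members (2) was 4 with at least 5 probe sets, 1 with quantile normalization and 1 with centred arrays. Lower sensors (3) were 1 with the median of probe sets, higher sensors (0) were 1 with at least 5 probe sets, and lower transcription factors (1) were 2 with the mean of probe sets. Higher effectors (1) were 2 without the filter, 0 with quantile normalization and 0 with centred arrays, and higher regulators (1) were 2 with the mean and 2 with at least 5 probe sets. Without 1 array, members gave 14 to 17 lower and 1 to 3 higher, sensors 1 to 2 lower and 0 higher, transcription factors 0 to 2 lower, effectors 7 to 9 lower and 0 to 2 higher, and regulators 2 to 3 lower and 1 to 2 higher. The related genes gave 14 to 17 lower and 5 to 6 higher.

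Among called members only Ifih1 turned its sign, to 0.014 with the median of probe sets. The other turns were in members not called, where values lie near 0. They were Ifnar1 (-0.013) and Stat2 (-0.0071) with quantile normalization, and Zbp1 (0.021), Oas2 (0.11), Parp9 (-0.022) and Xaf1 (0.16) with the median of probe sets. Mx1 turned with the mean (0.070), Oas3 (-0.053) and Xaf1 (0.0025) with the stricter filter, and Rsad2 without the filter (0.11). Without 1 array, Zbp1 ran from -0.051 to 0.013, Stat2 from -0.0092 to 0.024, Isg20 from -0.052 to 0.013, Ifit1 from -0.20 to 0.031, Mx1 from -0.062 to 0.0066, Oas3 from -0.0054 to 0.057, Rsad2 from -0.20 to 0.037 and Ifi35 from -0.0089 to 0.11. The causes of these changes were not tested, beyond that a fit without 1 array has fewer samples.

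Replicate numbers are shared by the groups. Same-numbered arrays deviated together with correlations of 0.0809, 0.1001 and 0.388, the last of these, for replicate 3, being the highest of all pairs. Pairs with other numbers ran from -0.365 to 0.306, and Smo shRNA replicate 1 correlated best with control shRNA replicate 2 (0.306). Whether same-numbered arrays share a preparation was not tested and cannot be told from so few pairs. With the replicate block, 21 members were lower and 5 higher, with 3 effectors and 2 regulators higher. Dim members near the array median, and genes with close relatives on the array, are measured least surely.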

Other observations

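Ptgfr, the receptor for prostaglandin F and a near neighbour of Ifi44 on chromosome 3, was looked at after the values of Ifi44 were seen. It is not an interferon gene by its known role. It read 7.41, 7.25 and 7.21 in Smo shRNA cells, against 9.35, 9.05 and 9.41 in control shRNA cells, with a wide gap between the groups (-1.98, limma adjusted p = 2.57e-09). Adgrl4, on the other side of Ifi44, did not pass, with means of 7.37 in Smo shRNA cells and 7.37 in control shRNA cells (0.01, adjusted p = 0.959).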
